A study of Sus scrofa with 12 samples.

Results

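The regions described here are N6-methyladenosine (m6A) peaks that run across a splice junction inside a transcript of pig back muscle. A peak was taken when its annotation named an exon that was neither number 1 nor the last of its transcript, and when its exonic sequence lay in 2 or more blocks separated by introns. Of 13487 peaks in all, 4982 met this rule (36.9%), and they lay in 1225 of the 2162 genes with any peak (56.7%). Another 1353 internal-exon peaks kept to 1 block and are called single-exon peaks below.

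Longissimus dorsi, the long muscle of the back, came from 5-day-old Large White pigs, a lean European breed, and 5-day-old Ningxiang pigs, a Chinese indigenous breed. The labels name no genotype, treatment or sex, and the aim given is to learn which modified mRNAs take part in muscle development in the breeds. Methylated RNA immunoprecipitation and sequencing (MeRIP-seq) pulls mRNA fragments down with an m6A antibody and sets them against unenriched input. There were 12 samples, immunoprecipitated and input for 3 replicates of each breed, and 1 peak list per replicate. The labels do not say whether replicates were separate pigs, so the tests below reflect the scatter among samples, and that scatter could be technical.

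m6A is placed on nascent mRNA by a methyltransferase complex built around METTL3 and METTL14, is removed by FTO and ALKBH5, and is read by YTH-domain proteins that alter mRNA decay, translation and splicing. In mammals it is known to gather in long internal exons and near stop codons, and exon junction complexes, which splicing leaves on mRNA just upstream of each junction, are known to keep it away from the junctions of short exons. An antibody peak marks a stretch of enriched fragments. It is read as holding a modified base, but it does not show which base that is.

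The label of a peak turned out to belong to its block with the lowest coordinate. Of 1020 blocks that could be compared with a single-block peak on the same transcript, 1013 had the exon number that this reading gives. Exon numbers rise along the chromosome on both strands, and they were turned round here so that exon 1 is the 5′ end. The label therefore does not keep a peak inside internal exons: 1001 of the 4982 peaks also reached the terminal exon with the highest coordinate. Of these, 501 lay among 2592 plus-strand peaks (19.3%) and reached the last exon, and 500 lay among 2390 minus-strand peaks (20.9%) and reached the first. The other 3981 were internal in every block. In the same lists 1383 junction-crossing peaks were labelled exon 1 and 1255 were labelled as untranslated regions, and neither kind is counted here.

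The peaks were short in mRNA and long in the genome. Exonic length had a median of 210 bases, with quartiles of 151 and 300 and a range of 115 to 1735. The introns inside a peak came to a median of 2658.5 bases, with quartiles of 936 and 7137. Summed over all peaks, 1308.899 kb of 40739 kb of genomic span was exonic (3.21%). Of the 4982 peaks, 2519 had 2 blocks (50.6%), 1513 had 3 (30.4%), 573 had 4 (11.5%) and 377 had 5 or more (7.57%). Exonic length came in steps: 74.8% of the peaks were within 1 base of a multiple of 30, as were 87.5% of single-exon peaks.

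The distance from the middle of a peak to its nearest crossed junction was measured as well. Every peak crosses a junction by rule and most are short, so short distances follow in part from the rule. No baseline was computed. The exonic midpoint was a median of 33.5 bases from the nearest crossed junction, within 50 bases in 70.1% of peaks and beyond 100 in 5.86%. The longest block held a median of 59.1% of the exonic bases. Some peaks only just met the rule: 71 had a first or last block of 1 base, and 1305 (26.2%) had one under 20 bases. Blocks between the outer ones are whole exons, and 1969 different exons were covered in this way. Their median length was 104 bases, with quartiles of 75 and 139, and 99 of them (5.03%) were 200 bases or longer. The longest, of 981 bases, was exon 5 of SPARCL1, which encodes a secreted matrix glycoprotein.

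Not every gap was an intron. In 6 peaks each gap was under 20 bases: 5 on BCHE, the plasma cholinesterase, with a gap of 1 base, and 1 on GPR4, a proton-sensing receptor, with a gap of 4. In addition, 6 peaks on CREB1, a cyclic AMP-responsive transcription factor, were second copies that repeated the span of another CREB1 peak of their list. These 12 peaks were kept.

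Large White lists held 881, 821 and 977 junction-crossing peaks, and Ningxiang lists held 733, 808 and 762. Every Large White list was above every Ningxiang list, with means of 893 ± 78.7 and 768 ± 37.8 (SD, n = 3 each). The difference was 125, with an exact two-sided permutation p of 0.1, the smallest that 3 lists against 3 can give, and an adjusted p of 0.12 over 6 breed comparisons. Large White lists were also longer, with 2373, 2214 and 2533 peaks of all kinds, against 2034, 2111 and 2222 in Ningxiang. Taken as a share of the list, the peaks made up 37.1%, 37.1% and 38.6% in Large White, against 36.0%, 38.3% and 34.3% in Ningxiang. These shares overlapped, and the difference of 1.39 percentage points did not pass the exact permutation test (p = 0.4, adjusted p = 0.4). It was 2.43 points without Ningxiang replicate 2, 0.902 without Large White replicate 3 and 0.436 without Ningxiang replicate 3. With the 2034 peaks of lowest p from each list, the difference in number was 28 (p = 0.4 in the exact permutation test).

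Genes with such a peak numbered 671, 628 and 733 in Large White and 566, 604 and 597 in Ningxiang, a difference of 88.3 (exact permutation p = 0.1, adjusted p = 0.12). At equal list length that difference was 24 (exact permutation p = 0.3). Sequencing depth is unknown from peak lists, and its part in these counts was not tested.

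**Figure D1:**
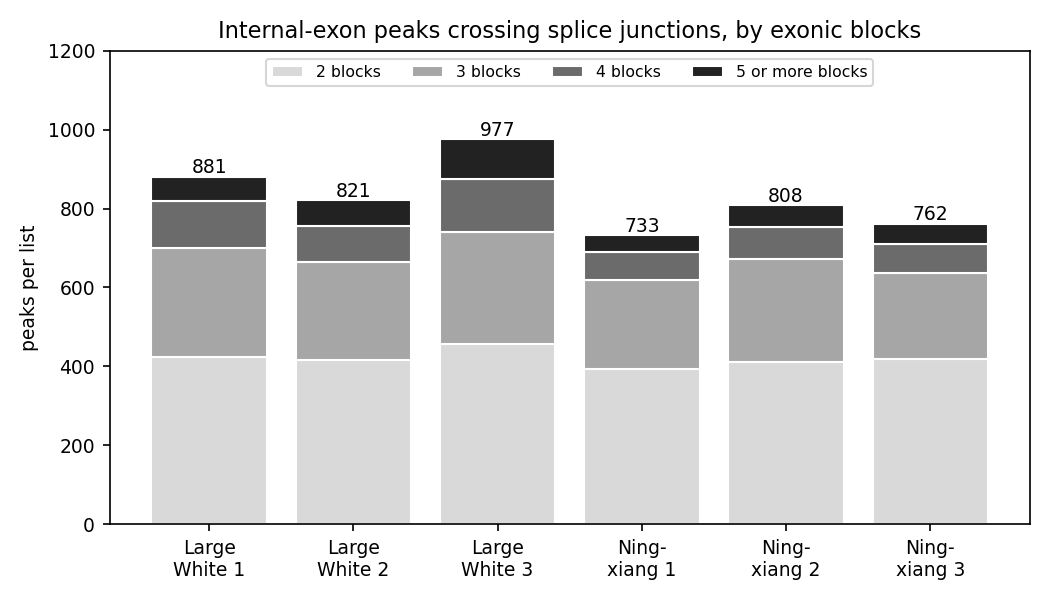
Junction-crossing internal-exon peaks in each of the 6 lists (bar height, number of peaks), divided by the number of exonic blocks, with Large White replicates on the left and Ningxiang replicates on the right. Totals run from 821 to 977 in Large White and from 733 to 808 in Ningxiang, and about equal parts of each bar have 2 blocks and more than 2.

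Block number and intronic length had higher values in each Large White list than in any Ningxiang list. Peaks with 3 or more blocks made up 51.9%, 49.3% and 53.2% in Large White lists, against 46.4%, 49.3% and 45.0% in Ningxiang lists. The means were 51.5% ± 1.98 and 46.9% ± 2.17 (SD, n = 3 each), and the lowest Large White list (49.33%) barely exceeded the highest Ningxiang list (49.26%). Median intronic length was 3026, 2834 and 2785 bases in Large White and 2423, 2342 and 2746.5 bases in Ningxiang, again with no overlap. Median exonic length was nearly the same, at 210, 210 and 211 bases in Large White and 209 bases in each Ningxiang list. The differences were 4.59 percentage points, 378 bases and 1.33 bases, each with an exact permutation p of 0.1 and an adjusted p of 0.12, so none passed 0.05.

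**Figure D2:**
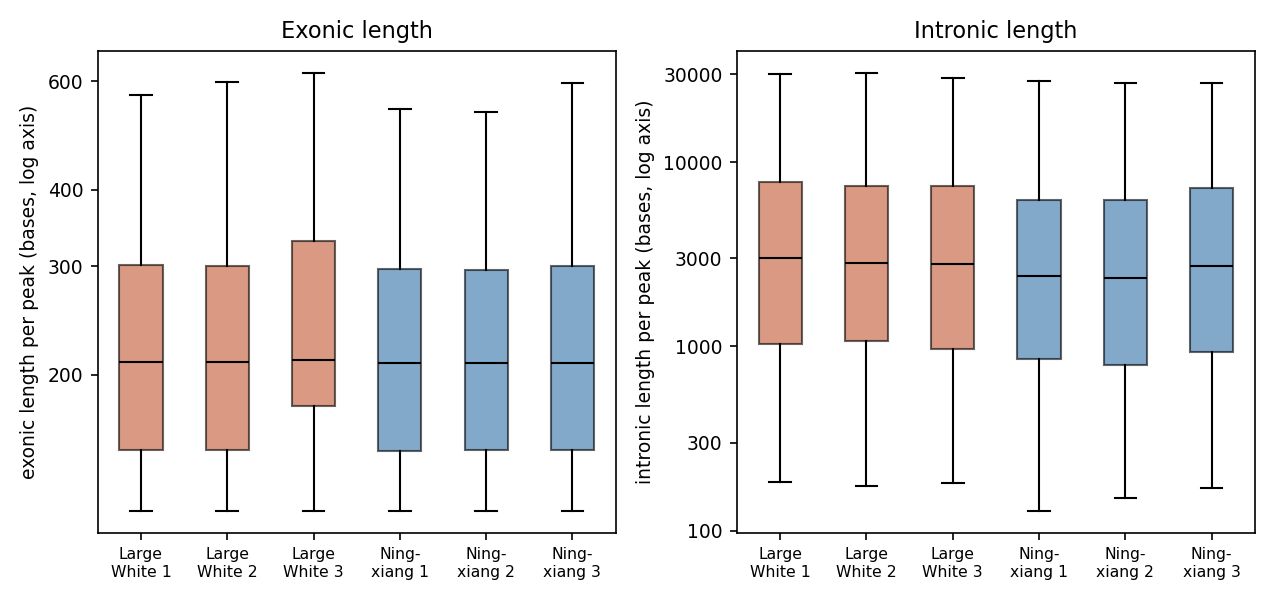
Exonic length (left) and intronic length (right) of the junction-crossing peaks in each list, in bases on log axes; boxes show quartiles and the median, and whiskers run from the 5th to the 95th percentile. Median exonic length sits between 209 and 211 bases in all 6 lists, while median intronic length is 2785 to 3026 bases in Large White and 2342 to 2746.5 bases in Ningxiang.

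Set against single-exon peaks of the same list, junction-crossing peaks had the lower median fold enrichment in all 6 lists. The fold is the authors' own value for a peak, the ratio of immunoprecipitated to input signal, and it is tested here only within a list; where values of several lists stand side by side they describe each list and are not compared as levels of methylation. In Large White lists the median fold was 2.36, 2.40 and 2.33 for junction-crossing peaks, against 2.48, 2.505 and 2.47 for single-exon peaks. In Ningxiang lists it was 2.29, 2.38 and 2.40 for junction-crossing peaks, against 2.415, 2.615 and 2.605 for single-exon peaks. The difference was negative in 6 of 6 lists, with a mean of -0.155 ± 0.0524 (SD, n = 6). An exact sign-flip permutation test gave p = 0.03125, the smallest that 6 lists allow, and the adjusted p over 4 such comparisons was 0.125, which does not pass 0.05.

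That difference depended on which peaks were set side by side. On plus-strand genes alone it was -0.0767 (exact permutation p = 0.219), and among peaks of at most 200 exonic bases it was -0.0633 (p = 0.0625). Within the 51 to 65 genes per list that held both kinds, the sign turned to +0.100 (exact permutation p = 0.406). Both of the last comparisons were added after the data were seen.

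For length, log10 p and position the difference from single-exon peaks did not pass the test. Median exonic length was higher in 4 lists and lower in 2, by 9.83 ± 14.5 bases on average (SD, n = 6, exact permutation p = 0.219, adjusted p = 0.25). The 2 kinds are split by their number of blocks and length is the sum of those blocks, so length is tied to the rule. The median log10 p was lower, so stronger, in 5 of 6 lists, by -0.667 ± 0.661 on average (exact permutation p = 0.09375, adjusted p = 0.1875). The relative position of the labelled exon, from 0 at the 5′ end to 1 at the 3′ end, was 0.0220 ± 0.0305 higher on average. It was higher in 3 lists and equal in the other 3 (exact permutation p = 0.25, adjusted p = 0.25). With means over peaks in place of medians, the differences in log10 p and in position were -45.8 and 0.0551, each with an exact permutation p of 0.03125 before adjustment. Position uses the exon number that the rule also uses, so its tests do not show position apart from the labelling.

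The spread of positions differed more than the medians did, though position is read from the exon number that the rule also uses. The first 20% of the exons held 12.4% ± 1.03 of junction-crossing peaks and 19.9% ± 2.05 of single-exon peaks (SD, n = 6 lists). The last 20% held 18.5% ± 1.23 of junction-crossing peaks and 12.6% ± 1.92 of single-exon peaks. The 6 values of junction-crossing peaks did not overlap those of single-exon peaks at either end. These shares are given without a test, since the label follows the lowest block. The rule also drops junction-crossing peaks labelled in the terminal exon with the lowest coordinate, and it keeps those that reach the other terminal exon. The shares at both ends therefore depend in part on the rule. The middle part was the fullest for single-exon peaks, at 30.9% ± 0.568, and it holds every peak on a transcript of 3 exons, which were 72 junction-crossing peaks (1.45%) and 65 single-exon peaks (4.80%).

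**Figure D3:**
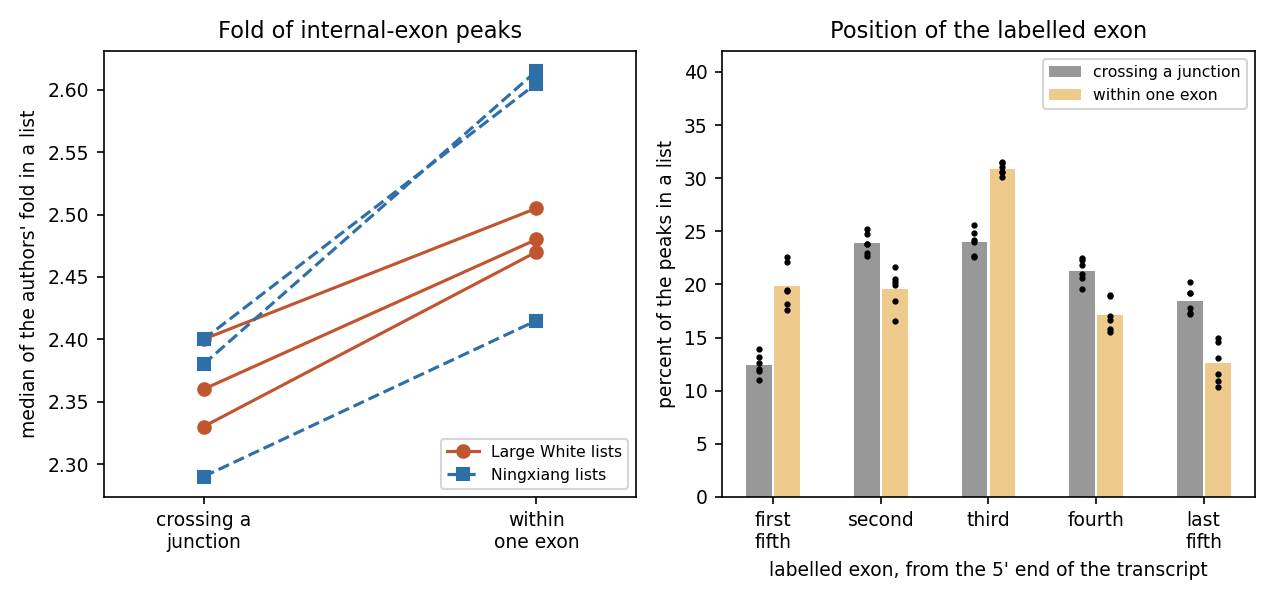
Left, the median of the authors' fold in each list for junction-crossing peaks and for single-exon peaks, joined by a line per list. Right, the percentage of a list's peaks whose labelled exon falls in each of 5 equal parts of the exon numbers, counted from the 5′ end. Bars give the mean of 6 lists and dots give single lists. All 6 lines lie higher for single-exon peaks, and junction-crossing peaks are fewer in the first part and more in the last. The shares by position depend in part on the rule.

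Among the junction-crossing peaks, fold went with the number of blocks. From 2 blocks to 5 or more, the median fold was 2.25 and 2.79 in Large White replicate 1, 2.235 and 2.72 in replicate 2, and 2.17 and 2.89 in replicate 3. In Ningxiang it was 2.15 and 2.81 in replicate 1, 2.215 and 2.89 in replicate 2, and 2.29 and 2.62 in replicate 3. Peaks of 5 or more blocks had the higher value in 6 of 6 lists. Their median exonic length was 449 to 536 bases, against 179 to 180 bases for peaks of 2 blocks, and the part of length in this pattern was not tested.

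Peaks with many blocks lay on genes of several kinds. CAST, the inhibitor of the calpain proteases, had 10 blocks and 713 exonic bases in Large White replicate 3. TOP2A, a DNA topoisomerase of dividing cells, had 10 blocks and 1048 exonic bases in Large White replicate 2. AUTS2, a nuclear protein of transcriptional control, had 9 blocks and 959 exonic bases in Large White replicate 1.

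Other peaks were long through large exons or large introns. On MDC1, a mediator of the DNA damage response, 2 blocks held 1705 bases (Ningxiang replicate 3, fold 5.53). On AKAP9, a scaffold protein of the Golgi and centrosome, 6 blocks held 1440 bases (Large White replicate 1), and on NCOA1, a nuclear receptor coactivator, 7 blocks held 1372 (Large White replicate 3). The most intronic sequence, 365065 bases, was enclosed on DMD, the gene of dystrophin, between exons 42 and 45 in Large White replicate 2. SGCD, the delta-sarcoglycan of the dystrophin complex, enclosed 254047 bases in Large White replicate 3. CWC27, a spliceosome-associated cyclophilin, enclosed 209979 bases in Large White replicate 1, and CHCHD3, which shapes mitochondrial cristae, 198354 bases in Large White replicate 3. Of the peaks named in this paragraph, the NCOA1 peak alone had a counterpart of at least 90% of its size in a second list.

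Junctions were counted next, since a junction can be matched exactly from list to list. The peaks crossed 3903 different junctions. Of these 1768 (45.3%) were crossed in 1 list, 787 in 2, 478 in 3, 331 in 4, 264 in 5 and 275 (7.05%) in all 6. Over the junctions crossed by peaks of any class, 10.2% were crossed in all 6 lists. The introns removed at these junctions had a median length of 1410 bases, with quartiles of 475 and 3426. The longest, of 275980 bases, lies in DMD and was crossed in 3 lists.

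Sharing of junctions was compared within and between breeds. The Jaccard index, the number of junctions shared by a pair of lists over the number in either, was 0.342 to 0.362 among Large White lists, 0.299 to 0.327 among Ningxiang lists and 0.275 to 0.339 between breeds. It averaged 0.332 ± 0.0231 over 6 pairs within a breed and 0.309 ± 0.0221 over 9 pairs between breeds (SD). The difference of 0.0227 was the highest of the 10 ways to split the lists, a one-sided exact permutation p of 0.1, the smallest possible here. It varied with the lists used: it was 0.00858 without Large White replicate 1, 0.0137 without Large White replicate 2 (exact permutation p = 0.3 for both), 0.0380 without Ningxiang replicate 2 and 0.0359 without Ningxiang replicate 3.

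**Figure D4:**
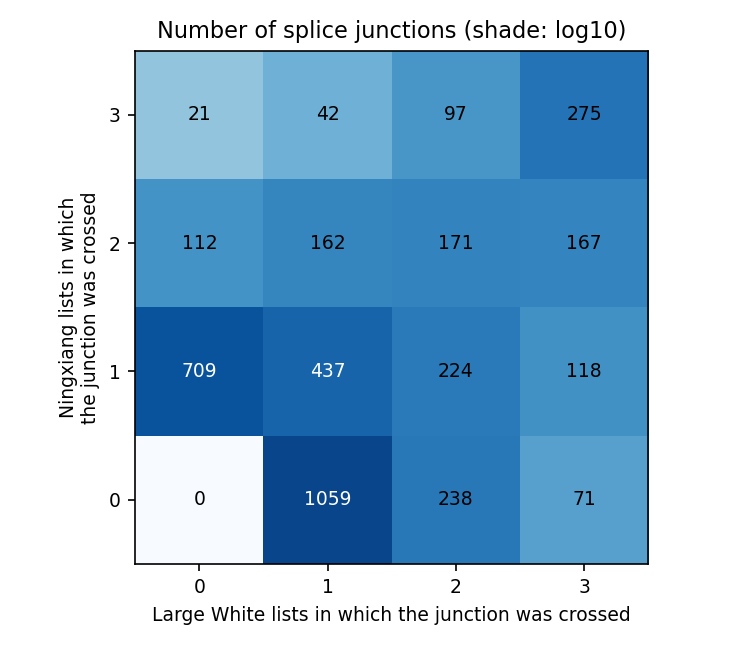
Number of junctions crossed by the peaks, arranged by the number of Large White lists (horizontal axis) and Ningxiang lists (vertical axis) in which they were crossed; colour follows the count on a log scale. The corner of 3 and 3 lists holds 275 junctions, the corner of 3 Large White and 0 Ningxiang lists 71, and the corner of 0 Large White and 3 Ningxiang lists 21.

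Of the 2162 genes with any peak, 56.7% had a junction-crossing internal-exon peak in at least 1 list, 9.9% had one in all 6 lists, and 6.89% had the same junction crossed in all 6. Of 16 sarcomere genes with any peak, 12 had such a peak, 7 had one in all 6 lists (43.75%) and 5 had the same junction in all 6. These 5 were MYH1 and MYH4, the fast myosin heavy chains, ACTN2, which crosslinks actin at the Z disc, and the tropomyosins TPM1 and TPM2. Growth and turnover signalling followed with 14 of 20 genes, 8 of them (40.0%) in all 6 lists. Of 26 lipid genes 18 had such a peak but 2 had one in all 6 lists, PPARGC1A and ACACB. Of 13 myogenic regulators 8 had one, and MEF2A alone had it in all 6. The lists are counted and not tested.

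The strongest recurrent junction was on CKM, muscle creatine kinase, which passes phosphate between phosphocreatine and ATP. All 6 lists crossed from exon 2 to exon 3 of 8, between bases 51711189 and 51712234 of chromosome 6 (minus strand). The fold was 1.93, 1.86 and 1.85 in Large White and 1.71, 1.90 and 1.87 in Ningxiang. These folds were below the medians of their lists. The log10 p reached the lowest value of all junction-crossing internal-exon peaks, -13400, in Ningxiang replicate 2. The exonic bases shared by the 6 peaks numbered 120, of which 112 were in exon 2 and 8 in exon 3.

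The sarcomere junctions also had very low p, with a log10 p of -382 or lower in every list. MYH1 was crossed between exons 24 and 25 of 38 (chromosome 12, bases 55235478 and 55235568), with folds of 2.11, 2.03 and 2.11 in Large White and 1.99, 2.29 and 2.02 in Ningxiang. MYH4 was crossed between exons 33 and 34 of 39 (chromosome 12, bases 55194103 and 55194752), with folds of 2.12, 2.17 and 2.16 in Large White and 2.17, 2.37 and 2.69 in Ningxiang. TPM1 was crossed between exons 3 and 4 of 10 (chromosome 1, bases 108999666 and 109001700), with folds of 1.85, 1.93 and 1.96 in Large White and 1.78, 1.90 and 2.05 in Ningxiang. All of these folds were below the median of the junction-crossing peaks in their list, apart from that of MYH4 in Ningxiang replicate 3.

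The TPM1 peaks were long, with 4 or 5 blocks and 475 exonic bases common to all 6. TPM2 was crossed between exons 4 and 5 of 10, with folds from 1.74 to 1.87, and ACTN2 between exons 16 and 17 of 21, with folds from 1.65 to 1.80. The myosin heavy chain genes are near-identical in stretches, as are tropomyosins, so reads may be shared among paralogs and these positions are uncertain.

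Outside the fibre, DCN, the collagen-binding proteoglycan decorin, was crossed between exons 5 and 6 of 10 (chromosome 5, bases 91700666 and 91701624). Its fold was 2.17, 2.11 and 2.14 in Large White and 1.86, 2.08 and 2.02 in Ningxiang. SERPING1, the inhibitor of complement protease C1, was crossed between exons 1 and 2 of 7 (chromosome 2, bases 13337140 and 13338096). Its fold was the highest of the 8 junctions with the strongest p in all lists, at 3.69, 4.25 and 3.92 in Large White and 3.95, 5.04 and 4.59 in Ningxiang.

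Calcium handling and proteolysis were represented by RYR1, through which the sarcoplasmic reticulum releases calcium, and CAPN3, the muscle-specific calpain. RYR1 was crossed between exons 54 and 55 of 109 in all lists, with folds of 1.83, 2.14 and 2.07 in Large White and 1.75, 1.94 and 1.89 in Ningxiang. CAPN3 was crossed between exons 15 and 16 of 24 in all lists, with folds of 2.34, 2.83 and 2.26 in Large White and 2.12, 2.19 and 2.37 in Ningxiang. The CAPN3 peak had 9 blocks in 5 of the lists and 4 in Ningxiang replicate 2.

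Growth factor signalling was represented by SMAD4, SMAD3, BMPR2 and IGFBP4. SMAD4, the common partner of receptor-activated SMADs, was crossed between exons 5 and 6 of 12, with folds of 3.24, 3.11 and 3.18 in Large White and 2.63, 2.94 and 2.94 in Ningxiang. SMAD3, which carries transforming growth factor beta signals, had folds of 2.13, 2.79 and 2.91 in Large White and 3.14, 7.75 and 3.21 in Ningxiang, between exons 3 and 4 of 9. The highest value was that of Ningxiang replicate 2, whose peak was also the longest of the 6, at 508 exonic bases against 240 to 329 in the other lists. BMPR2, a receptor of bone morphogenetic proteins, ranged from 2.13 to 3.68 between exons 11 and 12 of 13. IGFBP4, which binds insulin-like growth factors, ranged from 2.20 to 3.87 between exons 2 and 3 of 4.

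In all, 18 genes of the muscle and metabolism lists had a junction crossed in every list. The other 6, named to complete that count, were PPARGC1A, PRKAA1, MEF2A, CAMK2G, IGF1R and IGF2R. PRKAA1, a catalytic subunit of the energy sensor AMPK, had folds of 4.18, 5.66 and 5.87 in Large White and 4.38, 7.95 and 4.10 in Ningxiang. PPARGC1A, a coactivator of mitochondrial gene expression, had folds of 4.50, 4.50 and 4.69 in Large White and 4.45, 4.37 and 5.27 in Ningxiang, in peaks that crossed 4 junctions, from exon 4 to exon 8 of 13, in every list. MEF2A, a transcription factor of muscle differentiation, had folds of 3.36, 3.36 and 2.96 in Large White and 2.13, 3.59 and 2.92 in Ningxiang.

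Genes of m6A itself and of the splicing machinery were looked up as well. Of 3 m6A genes with any peak, WTAP, which recruits the methyltransferase to mRNA, had a junction-crossing internal-exon peak in 2 Large White and 3 Ningxiang lists. FTO, a demethylase, had one in 2 Large White lists and 1 Ningxiang list. All 6 exon junction complex and splicing genes with any peak had one, where 56.7% of all genes with any peak did. SRSF10, a splicing regulator, had it in every list, with folds from 1.88 to 3.64. EIF4A3, the RNA-clamping helicase of the exon junction complex, had it in 3 Large White lists (folds 1.68, 1.75 and 1.73) and in 0 Ningxiang lists, but not at 1 common junction. Its log10 p was -7.87, -5.42 and -9.19. Of all genes with such a peak, 1.47% had it in 3 Large White and 0 Ningxiang lists. For peaks of any class the share was 1.34% of genes with any peak, so EIF4A3 does not stand out by this pattern.

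Markers of the cell types that muscle can hold were counted as well. Of the markers with any peak, a junction-crossing internal-exon peak was found on 7 of 7 for myofibres, 1 of 3 for satellite cells (MYF5), 3 of 3 for fibroblasts, 3 of 3 for endothelium, 2 of 3 for immune cells, 1 of 1 for nerve and Schwann cells (SOX10) and 0 of 4 for adipocytes. The share over all genes with any peak was 56.7%, and numbers this small separate no cell type from it. Peaks do not measure expression, so the counts show neither how many cells of a type there were nor their RNA. In bulk muscle, fewer cells of a type and less RNA per cell cannot be told apart.

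The most peaks per gene were on genes with many exons, though each gene held a small part of the total. Of the 4982 peaks, DMD had 54, AKAP9 43 and RYR1 32. The median gene had 2 crossed junctions, and 42 genes had 10 or more. Over the 1225 genes the number of crossed junctions went with the number of exons (Spearman rho 0.476), a description across genes, which share lists and are not replicates.

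Dystrophin ties the cytoskeleton to the membrane of the fibre, and its gene had 10, 9 and 10 peaks in Large White and 12, 9 and 4 in Ningxiang. They crossed 41 of its 78 junctions (52.6%), of which 1, between exons 51 and 52, was crossed in all 6 lists. AKAP9 had 8, 7 and 8 peaks in Large White and 6, 9 and 5 in Ningxiang, over 27 of 49 junctions (55.1%), of which 2 were crossed in all lists.

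Of these 3 genes, RYR1 had the lowest share of its junctions crossed. It had 4, 5 and 6 peaks in Large White and 5, 6 and 6 in Ningxiang, yet they crossed 13 of its 108 junctions (12%). The junctions of exons 29 and 30, 54 and 55, and 70 and 71 were crossed in all 6 lists. Its folds ran from 1.63 to 2.84. The numbers of DMD, AKAP9 and RYR1 peaks overlapped between the breeds.

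**Figure D5:**
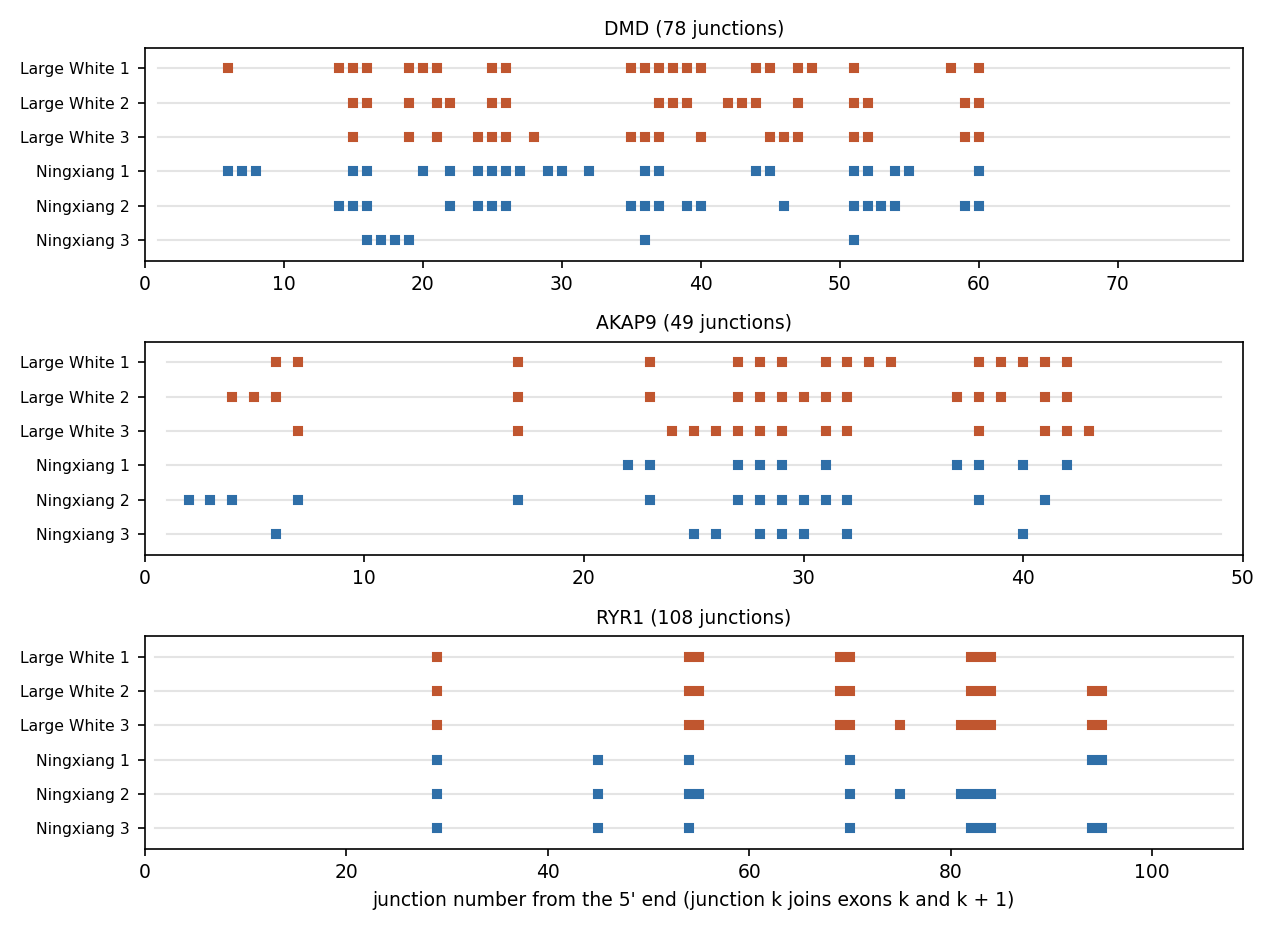
Junctions of DMD, AKAP9 and RYR1 crossed by the peaks in each list, with the junction number from the 5′ end on the horizontal axis and 1 line per list (3 Large White above 3 Ningxiang); each square is a crossed junction. In RYR1 the squares stack at 13 of 108 junctions, while in DMD they scatter over 41 of 78, with few in Ningxiang replicate 3.

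Junctions crossed in 3 of 3 lists of a breed and 0 of 3 of the other are called breed-only. There were 71 Large White-only junctions, 1.82% of 3903, in 55 genes, and 21 Ningxiang-only junctions, 0.538%, in 17 genes. Over junctions crossed by peaks of any class the same rule gave 1.92% Large White-only and 0.541% Ningxiang-only, so the shares here were near that background. Fisher's exact test of 3 of 3 against 0 of 3 cannot go below 0.1, so no single junction can be called.

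Many of these junctions lay in sequence where the other breed also had peaks. Peaks of another class crossed 3 of the 71 and 7 of the 21 in the other breed. Only 38 Large White-only and 9 Ningxiang-only junctions had no peak of any class, in any list of the other breed, on the exonic bases common to the 3 peaks. In 10 and 6 cases a peak lay on those bases in all 3 lists of the other breed.

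The Large White-only junctions with the lowest mean log10 p were on RYR1, HSPH1, CNN1, CHORDC1, LAMC1 and SUMO2. RYR1 was crossed between exons 69 and 70 with folds of 1.88, 1.88 and 1.96, but the Large White peaks reached only 21 bases into exon 69. Ningxiang peaks covered 57.3%, 85.8% and 57.3% of the same exonic bases without crossing. HSPH1, a chaperone of the HSP110 family, was crossed between exons 7 and 8 of 18 (chromosome 11, bases 7747265 and 7748140) with folds of 1.69, 1.71 and 1.72. Ningxiang lists had no peak on its 301 common bases, but all 3 held a junction-crossing internal-exon peak elsewhere on the gene.

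SUMO2, a ubiquitin-like protein modifier, was crossed between exons 2 and 3 of 4 (chromosome 12, bases 6118531 and 6124944) with folds of 1.99, 1.73 and 1.76. Ningxiang lists again had no peak on the 119 common bases. SUMO paralogs are similar in sequence, so its reads may be shared and the position is uncertain. CNN1, the calponin of smooth muscle, and CHORDC1, a cochaperone of HSP90, had Ningxiang peaks on the common bases in all 3 lists. LAMC1, a laminin chain of the basement membrane, had one in 1 Ningxiang list.

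The Ningxiang-only junctions with the lowest mean log10 p were on MDH2, HSDL2, CTCF, RYR1, JAK1 and CCL21. MDH2, mitochondrial malate dehydrogenase, was crossed between exons 1 and 2 of 9 (chromosome 3, bases 10129036 and 10132587). Its fold was 2.0, 2.01 and 6.15 over the Ningxiang lists, with replicate 3 apart, and Large White lists had no peak on the 209 common bases. RYR1 was crossed between exons 45 and 46 (chromosome 6, bases 47390060 and 47390149) with folds of 2.03, 1.74 and 2.63, also with no Large White peak on the common bases.

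JAK1, a kinase of cytokine receptors, had folds of 2.17, 2.05 and 1.95 between exons 11 and 12 of 25, and a peak of Large White replicate 3 covered 66.9% of its common bases. HSDL2, a dehydrogenase-like protein of peroxisomes, CTCF, a DNA-binding organiser of chromatin loops, and CCL21, a chemokine that guides lymphocytes, had Ningxiang-only junctions that peaks of another class crossed in Large White. All 12 named breed-only junctions stayed breed-only when each list was held to its 2034 strongest peaks. All but that of CCL21 did so when each list was held to its stronger 50%. These junctions were named for their low p and both cuts go by p, so their staying is no separate test. A cut also adds no peak to the other breed. Among all 71 Large White-only junctions, 54 stayed under the first cut and 19 under the second. Ningxiang-only junctions numbered 21, and 20 and 7 of them stayed.

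By gene, 18 had a junction-crossing internal-exon peak in 3 Large White and 0 Ningxiang lists (1.47% of 1225), and 8 in 0 Large White and 3 Ningxiang lists (0.653%). For peaks of any class the shares of genes were 1.34% and 0.74%. Of the 18 genes, 8 had no Ningxiang peak of any class, and of the 8 genes, 4 had no Large White peak. The Large White genes included VCAN, a matrix proteoglycan, with folds of 4.17, 3.77 and 3.50, and PRKAG1, a regulatory subunit of AMPK, with 2.18, 2.06 and 1.79. They also included VWF, the von Willebrand factor of endothelium, with 1.97, 2.68 and 1.71. The Ningxiang lists held 0 peaks of any class on PRKAG1, but all 3 held one elsewhere on VCAN and 1 on VWF. The Ningxiang genes included MDH2 and SOX10, a transcription factor of Schwann cells, with folds of 2.81, 4.64 and 5.88 and log10 p of -3.60, -3.67 and -4.58. Large White lists held 0 peaks on MDH2, and 1 of them held a peak of another class on SOX10. A gene with 0 listed peaks had none that met the calling threshold, and it may still carry m6A.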

How the data were processed

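The 6 peak lists, 1 per replicate, were each assigned through the sample descriptions that name it. Per the labels' protocols, mRNA was fragmented and enriched with an m6A antibody, and libraries were made from enriched and input RNA. The build was susScr11 and the tools included HOMER, ChIPseeker 1.30.2 and FastQC 0.11.9, per the submitters' processing notes. For the aligner and peak caller, nothing is given in the sources used here. Per the file headers, each peak carries a fold enrichment (a linear ratio), a p-value and its log10, used here as a score; the authors' calls had a lowest fold of 1.53 and a highest p-value of 0.0087. Read depth is not analysed here.

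Starts were taken as counted from 0. Exonic length is the sum of the block sizes, and intronic length is the span less that. The gene is the one in the annotation text, which differed from the nearest gene listed for 43 peaks. RefSeq names (Sscrofa11.1) matched 1211 of 1228 transcripts and no coordinates were taken from that table. Breeds were compared over lists with exact permutation tests, peak kinds with exact sign-flip tests within lists, both two-sided, adjusted by Benjamini-Hochberg over 6 and 4 comparisons, with a threshold of 0.05. The counting code was run on simulated junctions planted to meet the breed-only rule. Their recovery follows from the rule and does not measure missed or false peaks. Named genes were the 8 with the lowest weakest log10 p at a junction crossed in all 6 lists, the 4 with most blocks, longest exonic and longest intronic length, up to 6 per breed among breed-only junctions, and up to 12 of the muscle and metabolism lists; others were chosen after their values were seen. Some genes that met the rule are not reported here. The peaks and lists were chosen with earlier results of these data known. Same-numbered replicates of the breeds correlated at 0.00798, 0.0155 and 0.00104, and differently numbered ones at -0.0114 to 0.0033. All these values are close to 0, so they do not settle whether the numbers pair the samples. Calculations ran in pandas 2.3.3 and NumPy 2.4.6 under Python 3.11.15.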

Additional observations from a re-analysis of the deposited data

How the results depend on the processing

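Exact p-values here have floors of 0.1 (3 lists against 3) and 0.03125 (6 lists), and depth is unknown, so a missing peak may be a missed one. Whether the replicate numbers pair the samples is not settled. With a replicate block, the breed differences were the same (125 peaks, 88.3 genes, 378 intronic bases), with an exact permutation p of 0.25 (the smallest possible) for all but the share, at 0.75. With the stronger 50% of each list, the exonic length difference from single-exon peaks turned to -18.7 bases (exact permutation p = 0.03125) and the log10 p difference to +1.48, and breed-only junctions numbered 36 in Large White and 8 in Ningxiang and Ningxiang-only genes 2. On plus-strand genes the fold difference was -0.0767, the log10 p difference +1.28 and the position difference 0.0622 (p = 0.03125 for both of these by exact permutation), with 40 Large White-only junctions, 9 Large White-only genes and 4 Ningxiang-only genes. With means over peaks in place of medians, the differences were -3.93 bases, -0.477 in fold, -45.8 in log10 p and 0.0551 in position, the last 3 with an exact permutation p of 0.03125. Exonic length and position are both tied to the rule, so their p-values do not show a difference apart from it. Without peaks that reach a terminal exon, 5 Ningxiang-only genes were left. At exonic lengths of 200 bases or less the differences were -0.0633 in fold and -0.976 in log10 p; within genes holding both kinds the fold difference was +0.100. Requiring no peak on the shared bases left 38 and 9 breed-only junctions. Leaving out each replicate in turn, which for counts means 2 lists of a breed, gave a fold difference of -0.165 to -0.139 (exact permutation p = 0.0625 each, the floor for 5 lists), a breed difference of 83.3 (without Large White replicate 3) to 161 peaks, 0.436 to 2.43 points in their share and 0.00858 to 0.0380 in junction sharing, a difference from single-exon peaks of 6 to 12 exonic bases and 0.0121 to 0.0264 in position, 99 to 172 Large White-only and 28 to 72 Ningxiang-only junctions, and 34 to 46 and 9 to 31 genes. The cause of these changes was not tested.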

Other observations

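Whole exons that the peaks covered could be very short. Among them 30 exons in 25 genes were 27 bases or shorter, of which 12 had a length divisible by 3, a share like that of 807 in all 1969 covered exons. CAPN3, the muscle calpain, had an 18-base exon 15 covered in all 6 lists, and SRPK1, a kinase of splicing factors, a 26-base exon 9 in all 6. RYR1 had an 18-base exon 83 covered in 3 Large White and 2 Ningxiang lists. TNNT1, the slow skeletal troponin T, had exons 2, 3 and 5, of 14, 27 and 22 bases, covered in 0 Large White and 2 Ningxiang lists. In each of these 2 lists 1 peak covered them all. Each Large White list also held a junction-crossing TNNT1 peak, with folds of 1.66, 1.62 and 1.66, which did not cover these exons whole. Of all 3903 crossed junctions, 112 were crossed in 0 Large White and 2 Ningxiang lists. The genes of this paragraph were chosen after their values were seen, and the values are given as a description.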
